A study of Mus musculus with 66 samples.

Results

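The genes described here encode the coats and tethers that carry proteins between the endoplasmic reticulum (ER) and the Golgi. They were taken by symbol from the 24138 rows of the expression table. The rule takes the coatomer subunits, the Sec13, Sec16, Sec22, Sec23, Sec24, Sec31 and Sar1 genes, every Tmed gene and every Trappc gene. It found 51 genes: 9 of the COPI coatomer, 8 of the COPII inner coat and its GTPase, 5 of the COPII outer coat and scaffold, 3 SEC22 SNAREs, 11 TMED cargo adaptors and 15 TRAPP tether genes.

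RNA from frozen punches of the ventral striatum, which holds the nucleus accumbens (NAcc), was sequenced in 66 libraries from male mice aged 3 to 5 months, whose strain is C57BL/6 in the labels and C57BL/6J in the study's reporting summary. WT mice and iMSN-D2RKO mice received saline or 20 mg/kg cocaine at zeitgeber time (ZT) 3, which is 3 h after lights on, and tissue was taken at ZT3, 7, 11, 15, 19 and 23, with 3 libraries in each of 22 groups. The ZT3 libraries (labelled saline/cocaine) are listed under both treatments with identical values, so that each genotype has 1 ZT3 group, which enters both its saline and its cocaine series. In iMSN-D2RKO mice a Drd2 gene with both alleles floxed (D2R flox/flox) is deleted by a Cre driven by the D1R promoter (D1R-CRE+/-). The deletion falls on indirect-pathway medium spiny neurons (iMSNs), because their embryonic precursors express both receptors, and other cells with D2 receptors in the punch keep the gene. The labels do not give the Cre status of the WT mice. The levels are FPKM, fragments per kilobase of transcript relative to the mapped reads, so that they can be compared between genes of different length.

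COPII coats form on the ER when the GTPase SAR1 binds GTP, recruits the SEC23 and SEC24 inner layer that selects cargo, and is capped by a SEC13 and SEC31 cage at exit sites organised by SEC16. COPI coats, made of the coatomer, form on Golgi membranes and return escaped ER residents and cycling receptors. The TMED (p24) proteins cycle in both kinds of vesicle as cargo adaptors, among others for GPI-anchored proteins. TRAPP is a tether and the exchange factor that activates RAB1, and the SNARE SEC22B drives fusion. Neurons depend on this route for the receptors, channels and neuropeptides that leave the cell body, and genes of both coats are known targets of the unfolded protein response, a program started by the ER stress sensors IRE1 and ATF6.

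Promoters are shown for 5 members, picked because they hold a known control element and were called in a test below. RefSeq (GRCm38.p6) gave a promoter, 250 bases before to 50 after the gene start, for 43 of the 51 genes. The core of the unfolded protein response element (TGACGTG on either strand, or CACGTCA when read from the other strand) was found in 5 of these 43 (11.6%): Copb1, Copb2, Sec16b, Sec23a and Sec24d. The share was 2.01% of all 32851 promoters in the table and 2.67% of the 13927 promoters of genes that reached 1 FPKM in at least 1 library. The capitals mark that core in Copb1 (chr7:114254631-114254930, minus strand), Copb2 (chr9:98563481-98563780, plus strand) and Sec23a (chr12:59011968-59012267, minus strand), which are the members with this core that had higher levels in the dark phase in 1 or 2 of the series below:
Copb1: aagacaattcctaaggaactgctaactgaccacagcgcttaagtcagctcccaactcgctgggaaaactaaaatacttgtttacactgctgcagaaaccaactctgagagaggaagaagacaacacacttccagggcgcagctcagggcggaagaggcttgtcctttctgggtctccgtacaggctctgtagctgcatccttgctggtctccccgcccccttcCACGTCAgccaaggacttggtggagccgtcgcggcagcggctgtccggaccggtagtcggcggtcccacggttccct
Copb2: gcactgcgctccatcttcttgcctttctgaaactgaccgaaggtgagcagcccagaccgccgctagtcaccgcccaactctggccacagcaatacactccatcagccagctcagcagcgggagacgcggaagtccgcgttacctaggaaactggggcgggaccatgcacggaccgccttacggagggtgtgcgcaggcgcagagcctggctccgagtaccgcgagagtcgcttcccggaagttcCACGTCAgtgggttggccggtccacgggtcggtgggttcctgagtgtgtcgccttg
Sec23a: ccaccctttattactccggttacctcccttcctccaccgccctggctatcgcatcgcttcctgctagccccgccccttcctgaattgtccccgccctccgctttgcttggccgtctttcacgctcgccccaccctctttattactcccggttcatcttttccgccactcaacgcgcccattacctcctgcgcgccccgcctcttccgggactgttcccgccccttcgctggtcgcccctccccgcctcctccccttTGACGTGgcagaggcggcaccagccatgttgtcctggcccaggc
The palindromic E-box CACGTG, the site of the CLOCK and BMAL1 complex, was found in 6 of the 43 (14.0%), against 7.15% of all promoters and 9.49% of those of expressed genes. These 6 are Sar1a, Sec22c, Tmed8, Tmed10, Trappc5 and Trappc10. The promoters of Trappc5 (chr8:3676227-3676526, plus strand) and Trappc10 (chr10:78244596-78244895, minus strand), both called rhythmic in saline-treated WT mice, are given with the E-box in capitals:
Trappc5: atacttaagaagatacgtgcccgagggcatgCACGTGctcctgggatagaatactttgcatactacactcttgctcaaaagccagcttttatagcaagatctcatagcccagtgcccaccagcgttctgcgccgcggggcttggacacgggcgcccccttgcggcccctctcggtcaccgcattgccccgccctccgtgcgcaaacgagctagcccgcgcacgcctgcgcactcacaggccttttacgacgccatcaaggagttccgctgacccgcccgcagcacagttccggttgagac
Trappc10: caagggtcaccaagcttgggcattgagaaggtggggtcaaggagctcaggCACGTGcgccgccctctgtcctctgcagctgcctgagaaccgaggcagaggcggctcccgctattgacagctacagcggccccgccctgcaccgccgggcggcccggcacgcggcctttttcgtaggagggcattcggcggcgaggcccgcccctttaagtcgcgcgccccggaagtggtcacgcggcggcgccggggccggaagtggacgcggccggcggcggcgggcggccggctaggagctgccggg
The box CCACG, which overlaps the unfolded protein response core in its common form, was present in 62.8% of the 43 promoters, against 32.8% of all and 45.4% of those of expressed genes. CCAAT was present in 39.5%, against 37.4% and 37.0%. The joined ER stress element (CCAAT, 9 bases, CCACG) was in 0 of the 43. Of the other members called higher in the dark below, Arcn1, Copg2, Tmed5, Trappc6b, Trappc8, Trappc11 and Trappc13 are not among those with the core. Of those called rhythmic in saline-treated WT mice, Sec16a, Sec24b, Tmed3, Trappc8, Trappc11 and Trappc12 are not among those with the E-box. A gene for which RefSeq gave no promoter was not searched, and it would also be absent from those with the core or the E-box. These matches describe letters in a window and are no evidence of binding. A link between motif and level was not tested.

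In all, 46 of the genes reached 1 FPKM, and all 46 did so in each of the 66 libraries, as 76.2% of the 14643 genes above that filter did. The other 5 were at or close to 0: Sec16b with at most 0.189 FPKM, Sec31b with at most 0.344, Trappc3l with at most 0.27, Tmed6 with at most 0.137 and Tmed11 at 0 in every library. These 5 entered no test. Over all libraries the 46 had a median level of 27.9 FPKM, against 9.64 for all genes above the filter, and 40 of the 46 lay above that median.

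**Figure D1:**
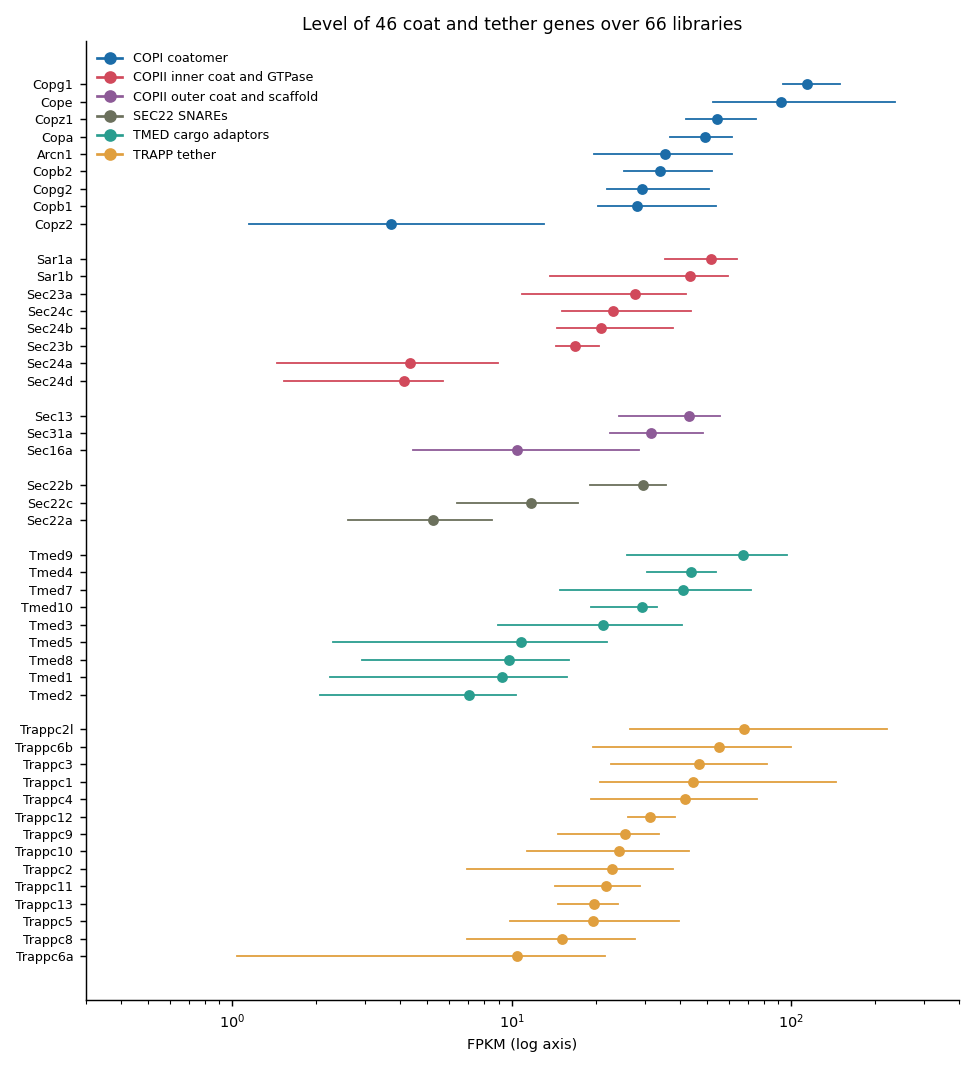
Mean level (point) and range over 66 libraries (line) of the 46 genes that reached 1 FPKM, by complex, on a log axis. Copg1 has the highest mean (114 FPKM) and Copz2 the lowest (3.7).

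The COPI coatomer was carried by Copg1 (gamma subunit, XLOC_017374), at 114 ± 10.6 FPKM (SD, n = 66), Cope (epsilon) at 92.0 ± 27.1, Copz1 (zeta) at 54.5 ± 6.05 and Copa (alpha) at 49.4 ± 5.33. Arcn1 (delta) had 35.3 FPKM and Copb1 and Copb2 (beta and beta prime) 28.1 and 34.1. In both subunits with interchangeable paralogues, 1 copy was the higher in every library: Copg1 exceeded Copg2 (29.3 FPKM) in 66 of 66, with a median ratio of 4.17, and Copz1 exceeded Copz2 (3.7 ± 1.43 FPKM) in 66 of 66, with a median ratio of 15.4.

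In the COPII inner coat the GTPase genes led, with Sar1a at 51.6 ± 3.94 FPKM and Sar1b at 43.4 ± 5.13, and Sar1a was the higher in 63 of 66 libraries. Sec23a (27.6 ± 5.66) exceeded Sec23b (16.8 ± 1.4) in 65 of 66. Of the cargo-binding SEC24 genes, Sec24c (23.1 ± 3.22) and Sec24b (20.9 ± 7.41) were well above Sec24a (4.33 ± 1.56) and Sec24d (4.11 ± 0.731). Within each sequence-related pair the order held in 66 of 66 libraries, Sec24b over Sec24a and Sec24c over Sec24d. The cage genes Sec13 (43.0 ± 8.46 FPKM) and Sec31a (31.4 ± 6.51) stood above the exit-site scaffold Sec16a (10.5 ± 2.7). Sec22b, the SNARE of the route (29.6 ± 2.37 FPKM), exceeded its relatives Sec22c (11.7 ± 1.57) and Sec22a (5.23 ± 1.27) in 66 of 66 libraries each.

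The TMED genes ranged from Tmed9 at 67.3 ± 20.1 FPKM to Tmed2, the beta-family member, at 7.07 ± 2.5, with Tmed4 at 43.9, Tmed7 at 41.1 and Tmed10, the delta-family member, at 29.3 ± 2.78. Of the TRAPP genes, the core subunit genes Trappc2l (67.8 ± 23.3 FPKM) and Trappc6b (55.2 ± 19.8) were the highest. Trappc6a, the paralogue of Trappc6b, was the lowest at 10.5 ± 5.03, and Trappc6b was the higher of the pair in 66 of 66 libraries. The genes that mark the larger forms of the complex lay between 15.1 FPKM (Trappc8) and 31.2 FPKM (Trappc12). They are Trappc9 and Trappc10 for TRAPPII and Trappc8, Trappc11, Trappc12 and Trappc13 for TRAPPIII.

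The spread over libraries differed widely between members. The coefficient of variation was 7.63% for Sar1a, 7.8% for Trappc12 and 8.01% for Sec22b. It reached 42.9% for Tmed5 and 48.0% for Trappc6a, with a median of 20.5% over the 46 against 27.0% over all genes above the filter.

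Some libraries stood apart from others of their own group, and they bear on nearly every result below. Over 9584 genes, 1 axis held 43.6% of the variance between libraries of a group, and 13 libraries had scores of 44.3 to 56.1 on it against -35.9 to 15.1 in the other 53. These 13 lie in 10 groups: 4 are of WT mice at ZT19, 2 of WT mice at ZT23, 1 of iMSN-D2RKO mice at ZT7 and 2 each of iMSN-D2RKO mice at ZT15, ZT19 and ZT23. So 12 of the 13 come from the dark phase. The sums of FPKM ran from 364078 to 690048. The library with the highest sum (iMSN-D2RKO, saline, ZT7, replicate 1) had the lowest value of 11 of the 46 members and the highest of 10, among them Cope at 235 FPKM and Trappc2l at 220. The library with the lowest sum (WT, cocaine, ZT15, replicate 3) had the lowest value of 14 and the highest of 10, among them Sec16a at 28.7 FPKM and Tmed5 at 2.3. Summed levels of the 8 spiny neuron markers were at least 2442 FPKM in every library, and those of the 4 cortical neuron markers ran from 3.4 to 279. Choroid plexus markers reached 1123 FPKM in 1 library, against a median of 2.29 in iMSN-D2RKO libraries. In bulk tissue fewer cells of a type and less RNA per cell cannot be told apart. Drd2, the targeted gene, had a median of 112 FPKM in the libraries labelled iMSN-D2RKO (78.0 to 375) and of 129 in WT (99.1 to 304). The limma adjusted p of its level difference was 0.978 under saline, so Drd2 did not separate the genotypes. The level covers the whole gene, and a deletion of part of it need not lower this level, so that it is no check of the deletion. Other spiny neuron genes did differ by label. Penk, the enkephalin precursor gene of indirect-pathway neurons, had a median of 2201 FPKM in iMSN-D2RKO and 1317 in WT libraries, with a limma adjusted p of 0.0165 under saline and 0.0224 under cocaine (0.0609 and 0.0574 without the set-apart libraries). Drd1 had medians of 114 and 84.8 FPKM (limma adjusted p = 0.117 and 0.194).

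Compared with the other libraries of the same group, the set-apart libraries had lower levels of 13 members in 10 of 10 groups and higher levels of 11 members in 10 of 10. These 24 are 52.2% of the 46, and 52.1% of the 9584 genes above 5 FPKM differed in 1 direction in 10 of 10 groups, so that such a division was as common in the whole transcriptome. The axis was found from these same libraries, so the differences are a description and carry no test.

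The 13 that were lower were 5 TMED genes (Tmed1, Tmed2, Tmed3, Tmed4, Tmed9), 5 TRAPP genes (Trappc2l, Trappc3, Trappc4, Trappc6a, Trappc9), the coatomer genes Cope and Copg1 and the cage gene Sec13. The 11 that were higher were Sec23a, Sec24a and Sec24b of the inner coat, Sec31a and Sec16a, the coatomer genes Arcn1, Copb1 and Copg2, Tmed7 and the TRAPPIII genes Trappc8 and Trappc11. Thus the RNA levels of the cage genes Sec13 and Sec31a differed in opposite directions, and protein was not measured. Sec13 ran from 24.2 to 30.6 FPKM in the 13 libraries and from 30.6 to 55.9 in the other 53. Sec31a had a median of 43.3 FPKM in the 13 and of 28.1 in the 53. Tmed9 did not overlap, with 39.7 to 96.3 FPKM (median 76.1) in the 53 and 25.8 to 35.4 (median 30.9) in the 13. Trappc6a had a median of 12.6 FPKM in the 53 and of 1.97 in the 13, a mean log2 difference of -1.97. Sec24b had a median of 17.1 FPKM in the 53 and of 34.9 in the 13, a mean log2 difference of 0.98.

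Ratios between subunit genes differed in the same libraries. The ratio of Copg1 to Copg2 had a median of 4.23 in the 53 libraries and 2.82 in the 13. The ratio of Copb1 to Copb2 ran from 0.474 to 0.901 in the 53 and from 0.910 to 1.12 in the 13, without overlap. The ratio of Trappc6b to Trappc6a ran from 2.1 to 16.2 in the 53 and from 27.3 to 75.1 in the 13, also without overlap. The summed level of the 5 astrocyte markers had a median of 365 FPKM in the 13 libraries and 244 in the 53, and that of the 5 oligodendrocyte markers 2277 and 2912. Their part in the members' differences was not tested.

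**Figure D2:**
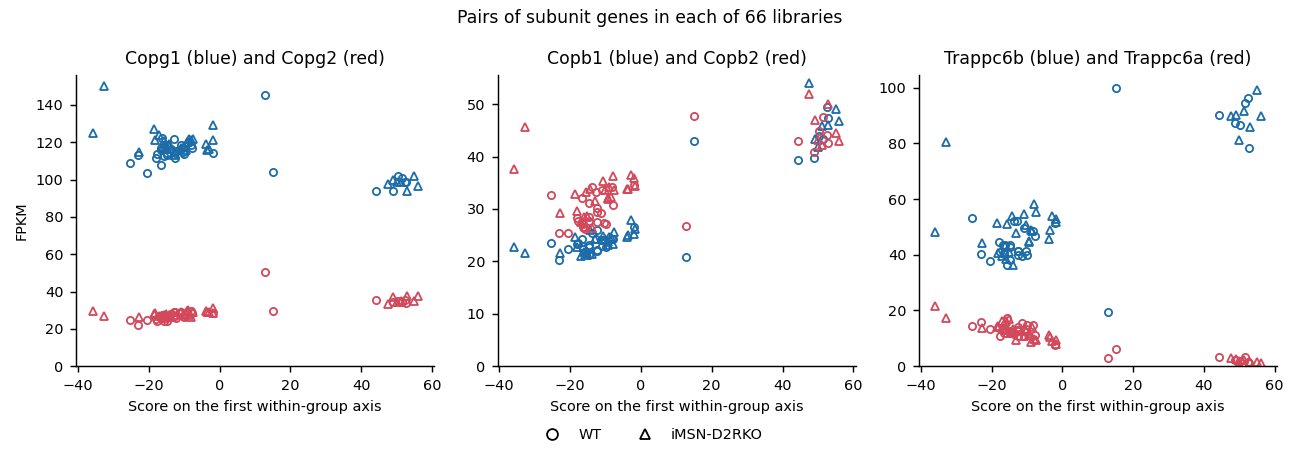
FPKM of 3 pairs of subunit genes in each of 66 libraries (circles WT, triangles iMSN-D2RKO) against the score on the first within-group axis. The 13 libraries at the right have scores of 44.3 to 56.1, less Copg1 (93.7 to 102.0 FPKM) than the other 53, a ratio of Copb1 to Copb2 near 1, and at most 3.32 FPKM of Trappc6a.

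Transcript length and GC content differed between both sets. The 13 members that were lower had a median transcript length of 1378 bases and a median GC content of 53.3%, and the 11 that were higher had 4228 bases and 44.3%. Across the 46 members the log2 difference rose with length (Spearman's rho 0.50, Pearson's r with log2 length 0.55) and fell with GC content (rho -0.62). Over 8882 genes above 5 FPKM rho was 0.43 with length and -0.65 with GC content. These are correlations across genes measured in the same libraries, and genes are not independent replicates.

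**Figure D3:**
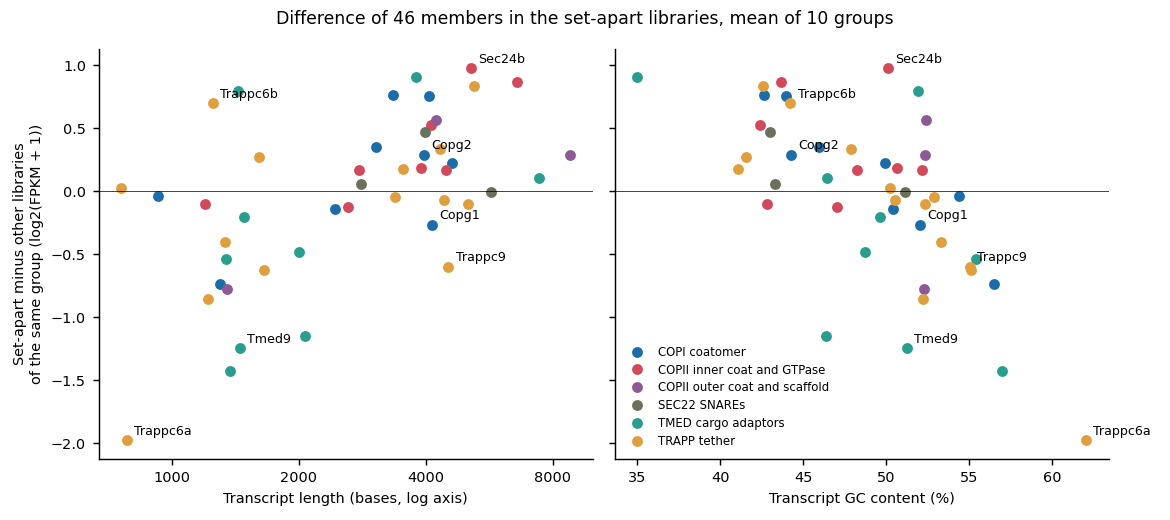
Mean difference between set-apart and other libraries of the same group (log2(FPKM + 1), mean of 10 groups) for each of the 46 members against transcript length in bases (left, log axis) and GC content in percent (right), coloured by complex. Short, GC-rich Trappc6a lies lowest at -1.97 and long Sec24b highest at 0.98.

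The first question of the design was which members follow the time of day in each series of 18 libraries. Injections were given at ZT3, so time of day and time since the injection cannot be told apart within a series. In saline-treated WT mice JTK_CYCLE, an exact rank test, called 8 of the 46 rhythmic (corrected p under 0.01 for a period of 20 to 24 h), or 17.4%, against 9.58% of the 14405 genes tested. Among the 8 were 5 TRAPP genes: the core gene Trappc5, the TRAPPII gene Trappc10 and the TRAPPIII genes Trappc8, Trappc11 and Trappc12. The other 3 were Sec16a, Sec24b and Tmed3. Under cocaine WT mice had 4 called members (8.7%, against 7.57% of the 14405 genes): Trappc13 of TRAPPIII, the coatomer genes Copb1 and Copa, and Tmed1. Under saline the exact p of these 4, corrected like every JTK_CYCLE p given here, was 0.0146, 0.041, 0.783 and 0.211. The difference between treatments was tested separately below. Both iMSN-D2RKO series had 0 called members, against 2.57% of the 14267 genes tested under saline and 1.09% under cocaine.

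Trappc11, a foie gras subunit of TRAPPIII, had the smallest corrected p under saline (6.8e-05). It was lowest at ZT7, with 18.8 to 19.8 FPKM in the 3 libraries, and highest at ZT19, with 26.0, 24.6 and 21.8. The groups at these 2 times did not overlap, and the ratio of their means was 1.26. The 2 higher ZT19 libraries are set-apart ones. Trappc11 was still called when all set-apart libraries of the series were left out, which leaves only the lowest ZT19 library. Its exact p was 0.995 after the library score was removed. Tmed3, a gamma-family cargo adaptor (exact p = 0.000337), ran the other way. It had 26.3, 28.5 and 25.6 FPKM at ZT7 and 13.7, 15.5 and 21.7 at ZT19, a ratio of means of 1.58. Its p without the set-apart libraries was 0.0124.

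The next exact p, 0.00371, was shared by 3 members. Trappc12 had 34.8, 37.8 and 34.9 FPKM at ZT11 and 29.5, 27.9 and 31.5 at ZT19. Trappc5 had 20.8, 20.5 and 21.8 FPKM at ZT19 and 16.6, 18.1 and 17.8 at ZT11. Sec16a had 12.1, 12.5 and 11.2 FPKM at ZT15 and 9.74, 9.68 and 9.32 at ZT7. In each of these the highest and lowest times did not overlap, and the ratios of means were 1.21, 1.2 and 1.25. Without the set-apart libraries p was 0.000981 for Trappc12, 0.124 for Trappc5 and 0.00811 for Sec16a. Trappc10 had 26.0, 26.1 and 26.5 FPKM at ZT15 and 20.6, 23.6 and 22.4 at ZT23, a ratio of 1.18 (exact p = 0.00533, and 0.00175 without the set-apart libraries). Sec24b and Trappc8 showed larger ratios (1.61 and 1.74) that rested on a pair of set-apart libraries at ZT19: Sec24b had 30.3, 32.8 and 16.6 FPKM there and Trappc8 had 25.2, 24.2 and 13.1. Without these libraries Trappc8 was still called (exact p = 0.00811) and Sec24b was not (exact p = 0.0128).

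Under cocaine, Copb1 was lowest at ZT11, with 21.7, 22.1 and 21.1 FPKM, and highest at ZT19, with 47.3, 43.0 and 49.5, a ratio of means of 2.15 (exact p = 0.00371). All 3 ZT19 libraries were above every other time point except 1 set-apart library at ZT23, and replicate 2 (43.0 FPKM) is not a set-apart library, although its score of 15.1 is the highest of the other 53. The exact p of Copb1 was 0.0295 when set-apart libraries were left out and 0.00173 after the library score was removed. Trappc13 (exact p = 0.00173) had 22.1, 23.1 and 23.8 FPKM at ZT19 and 18.8, 17.1 and 14.6 at ZT15, a ratio of 1.37. Copa (exact p = 0.00507) had 59.0, 57.3 and 54.0 FPKM at ZT19 and 41.9, 41.7 and 47.7 at ZT7, a ratio of 1.3. Tmed1 (exact p = 0.00533) was low at ZT19, with 2.25, 5.62 and 2.83 FPKM, and high at ZT7, with 10.9, 13.4 and 12.5, a ratio of 3.44. None of these 4 was called without the set-apart libraries.

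**Figure D4:**
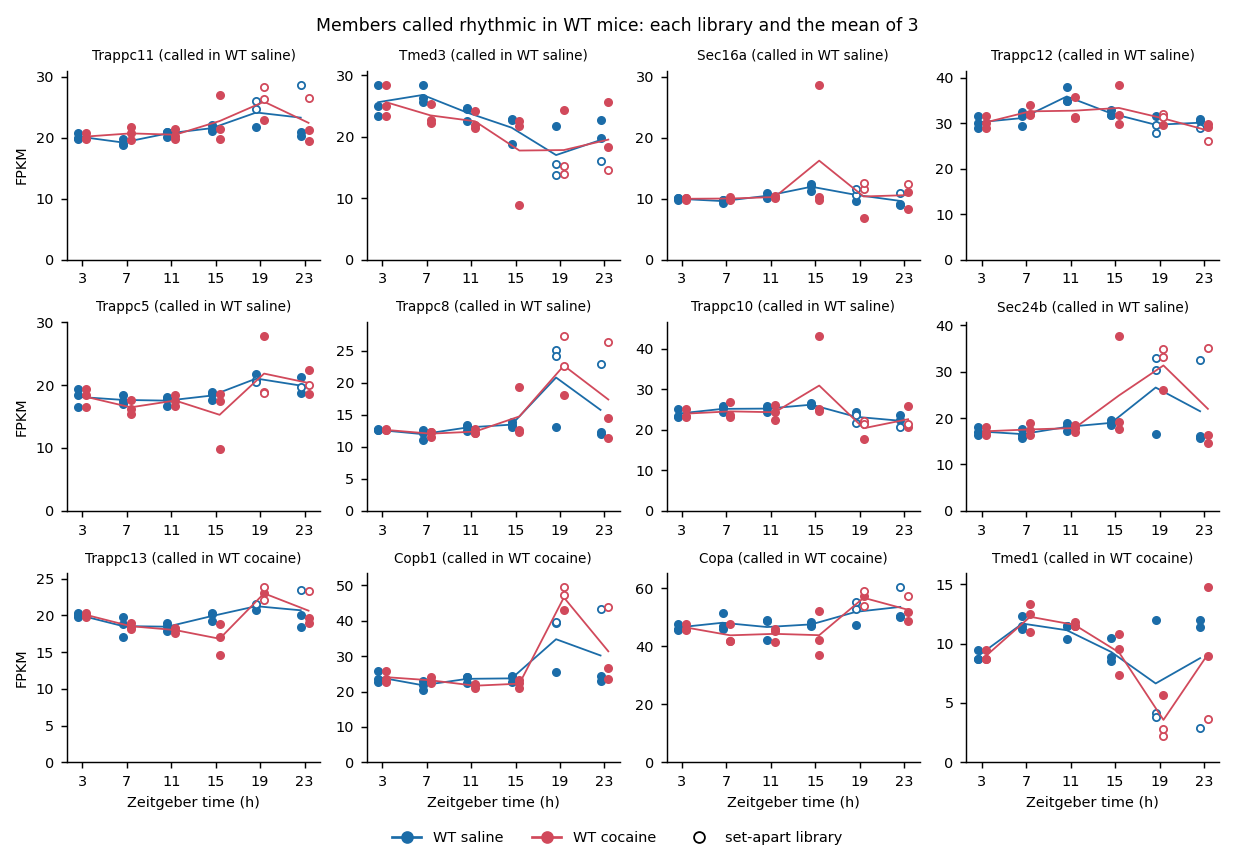
FPKM at 6 zeitgeber times in WT mice for the 8 members called rhythmic under saline and the 4 called under cocaine; points are single libraries (open where set apart), lines join the means of 3, blue is saline and red is cocaine. Copb1 reaches 43.0 to 49.5 FPKM in all 3 cocaine libraries at ZT19, whereas the extremes of Trappc8 and Sec24b at ZT19 under saline are open points.

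In iMSN-D2RKO mice the smallest p values under saline belonged to Sec16a (0.0106), Sec24c (0.0146) and Tmed9 (0.0269). Sec16a had 11.1 to 12.9 FPKM at ZT15 and 4.44, 9.27 and 9.47 at ZT7, where the lowest value is that of the library with the highest FPKM sum. Under cocaine the smallest p values among members with a mean of at least 5 FPKM were those of Trappc1 (0.0809), Cope (0.104) and, with the same value of 0.128, Copz1 and Trappc12. Sec24a, below that mean at 4.33 FPKM, had a p of 0.0981. Sec16a was highest at ZT15 in both saline series.

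The rhythms themselves were compared in a cosine model. In limma the time course differed between treatments or genotypes for 0 of the 46 members, against 0.0% of the genes tested in each of the 4 comparisons. An unadjusted p under 0.05 was found for 2 members, both for cocaine against saline in iMSN-D2RKO mice. They were Cope and Sec23a, each with a limma adjusted p of 0.594. Of all genes tested, 198 to 789 had an unadjusted p under 0.05 in the 4 comparisons. The smallest p for a member was 0.205 (Sec24d) between treatments in WT mice, 0.103 (Sec22c) between genotypes under saline and 0.0572 (Copa) between genotypes under cocaine. A p above the threshold does not show that the rhythms were alike.

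Levels did not pass the test for any member either, between treatments over the 5 time points after injection, or between genotypes over 6 time points (ZT3 included) under saline and 5 under cocaine. For cocaine against saline, 0 of 46 members and 0.0% of 14392 genes were called in WT mice, and 0 members and 0.0% of 14238 genes in iMSN-D2RKO mice. No member had an unadjusted p under 0.05, against 365 and 425 of all genes. The smallest p in WT mice was that of Tmed10, with a log2 difference of -0.10 ± 0.062 (SE, limma adjusted p = 1), and in iMSN-D2RKO mice that of Trappc5, at -0.13 ± 0.077 (limma adjusted p = 0.999). The median difference over the 46 was -0.02 in WT and -0.01 in iMSN-D2RKO mice. Between genotypes 0 members passed, against 0.189% of 14287 genes under saline and 0.0487% of 14382 under cocaine. Under saline Trappc5 was nearest the threshold, at 0.17 ± 0.063 in iMSN-D2RKO minus WT (limma adjusted p = 0.408), followed by Copb2 at 0.15 ± 0.067 (adjusted p = 0.472) and Copz2 at 0.23 ± 0.11 (adjusted p = 0.482). These 3 were the members with an unadjusted p under 0.05, among 1428 genes. In the library of the highest FPKM sum Copz2 had 13.1 FPKM, against 3.35 and 3.08 in the others of its group, and Trappc5 had 39.7, against 21.6 and 20.6. Without that library the difference was 0.14 for Copz2, 0.11 for Trappc5 and 0.12 for Copb2 (limma adjusted p = 0.555, 0.278 and 0.624). Under cocaine the smallest p was that of Trappc3 (0.15 ± 0.088, limma adjusted p = 1). The test of whether cocaine acted differently in the 2 genotypes called 0 members and 0.0% of 14643 genes, with 271 genes at an unadjusted p under 0.05 and none of them a member. Copz2 came first, with -0.22 ± 0.16 (limma adjusted p = 1).

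At single time points, 0 of 460 tests of members passed, against 0.00478% of 146430 tests of all genes (limma, 5 time points in each genotype). An unadjusted p under 0.05 was found in 22 member tests (4.78%), against 5.79% of all tests. Of the 22, 11 were at ZT7 and 8 at ZT19 in iMSN-D2RKO mice, and 3 at ZT15 in WT mice. The share of all genes at each of these time points is not given here, so this split is not read as a result about the members. In iMSN-D2RKO mice the library with the highest FPKM sum is at ZT7, and set-apart libraries lie at both ZT7 and ZT19. The library with the lowest FPKM sum is in the cocaine group of WT mice at ZT15. Trappc2 at ZT15 in WT mice had the smallest unadjusted p, with -0.62 ± 0.19 (limma adjusted p = 0.301). Its cocaine libraries had 16.3, 17.3 and 6.94 FPKM, and the lowest is the library with the lowest FPKM sum. Sec22b at ZT7 in iMSN-D2RKO mice followed, with 0.32 ± 0.10 (limma adjusted p = 0.116).

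Dark and light phases were compared within each series as the mean of ZT15, 19 and 23 minus the mean of ZT3, 7 and 11. The dark time points are also the later ones after the injection, and the design cannot tell these apart. In cocaine-treated WT mice 7 of the 46 members passed (limma, 15.2%), against 13.7% of 14643 genes. Of the 7, 4 were higher in the dark (9.9% of all genes were): Copb1, Copb2 and Copg2 of the coatomer and Trappc6b. The other 3 were lower (3.79% of all genes): Tmed2, Trappc6a and the GTPase gene Sar1a. After rescaling the libraries by their median ratio 6 passed (13.0%, against 12.1% of all genes), of which 1 (Copb2) was higher. In saline-treated iMSN-D2RKO mice 14 members passed (30.4%), against 27.3% of all genes. After rescaling 17 passed (37.0%, against 26.8% of all genes), of which 8 were higher. Of the 14, 9 were higher in the dark (17.4% of all genes were): Arcn1, Copb1, Copb2, Sec23a, Tmed5, Trappc6b, Trappc8, Trappc11 and Trappc13. The other 5 were lower (9.88%): Tmed2, Tmed3, Tmed9, Trappc6a and Trappc9. No member passed in saline-treated WT mice (2.75% of all genes, 10 members at an unadjusted p under 0.05 of 3979 genes) or in cocaine-treated iMSN-D2RKO mice (0.942%, 2 members of 1826 genes). Before rescaling, the share of called members was close to that of all genes in both series with calls.

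Copb1, Copb2, Tmed2, Trappc6a and Trappc6b passed in both series that had calls, which share no library. Both comparisons were taken from the same fit, with a common estimate of the spread, so they are not independent tests. In both series every set-apart library is in the dark phase. The share of all genes that passed in both is not given here, so this overlap is not read as a result about the members. In cocaine-treated WT mice Copb2 ran from 26.1 to 32.1 FPKM in the light (median 27.8, n = 9) and from 25.4 to 47.8 in the dark (median 34.7, n = 9), a log2 difference of 0.31 ± 0.089 (limma adjusted p = 0.0205). Copb1 had a median of 22.8 FPKM in the light (21.1 to 25.9) and of 26.6 in the dark (20.9 to 49.5), a difference of 0.44 ± 0.15 (limma adjusted p = 0.0398). The ranges of light and dark overlapped for all called members in both series.

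The cargo adaptor gene Tmed2 fell from a median of 9.21 FPKM (8.78 to 10.1) to 6.66 (2.06 to 10.1), a log2 difference of -0.71 ± 0.22 (limma adjusted p = 0.0273). The core subunit gene Trappc6a fell from 12.4 FPKM (10.8 to 17.3) to 6.17 (1.04 to 14.5), a difference of -1.18 ± 0.39 (limma adjusted p = 0.0379). Its paralogue Trappc6b rose from 40.7 FPKM (36.2 to 43.7) to 53.2 (19.5 to 99.7), a difference of 0.48 ± 0.16 (limma adjusted p = 0.0386). The differences of the paralogues thus had opposite signs, although after rescaling the adjusted p of Trappc6b was 0.0538 (limma). Trappc6b was not higher throughout the dark. Its group means were 34.0 FPKM at ZT15, where the library of the lowest FPKM sum had 19.5, 91.4 at ZT19 and 63.7 at ZT23. In the light they were 39.6 to 41.5. The summed astrocyte markers ran from 208 to 279 FPKM in the light (median 242) and from 169 to 406 in the dark (median 287) in this series. Their part in these differences was not tested.

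In saline-treated iMSN-D2RKO mice Copb1 led, with 21.7 FPKM in the light (21.1 to 25.6, n = 9) and 27.8 in the dark (22.7 to 49.1, n = 9), a log2 difference of 0.53 ± 0.15 (limma adjusted p = 0.0146). Trappc13 had 18.1 FPKM (16.3 to 19.8) and 21.3 (18.7 to 23.7), a difference of 0.20 ± 0.056 (limma adjusted p = 0.0147). Copb2 had 29.7 FPKM (26.5 to 45.6) and 37.7 (32.2 to 50.0), a difference of 0.31 ± 0.089 (limma adjusted p = 0.0147). These 3 had close to the same adjusted p, while the size of the difference was smallest in Trappc13. Trappc11 (0.28 ± 0.081) and Arcn1 (0.51 ± 0.15) followed, with limma adjusted p of 0.0152 and 0.0178. In this series the summed oligodendrocyte markers had a median of 3265 FPKM in the light and 2277 in the dark, and the cortical neuron markers 129 and 55.6. Their part in these differences was not tested.

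The calls under saline in iMSN-D2RKO mice were lost without the set-apart libraries: 0 of 46 members passed, with 31 of all genes. The difference of Copb1 was then 0.15, of Trappc6a -0.05 and of Tmed9 -0.045. In cocaine-treated WT mice 8 members (17.4%) passed without these libraries, against 18.1% of all genes, and 5 of them were among the 7 above: Copb1 (0.32, limma adjusted p = 6.27e-05), Copb2 (0.29), Tmed2 (-0.46), Trappc6a (-0.59) and Trappc6b (0.44). Of the 8, 4 were higher in the dark. At ZT19 this fit keeps only replicate 2 of the cocaine libraries, in which Copb1 was at 43.0 FPKM, Copb2 at 47.8 and Trappc6b at 99.7. With the library score as a covariate 0 members passed in any series, against 1.88% to 4.58% of all genes. Without replicate 1 or without replicate 3 none passed in cocaine-treated WT mice, against 2.75% and 0.0% of all genes. In saline-treated iMSN-D2RKO mice 1 and 0 passed then, against 2.56% and 0.368%.

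**Figure D5:**
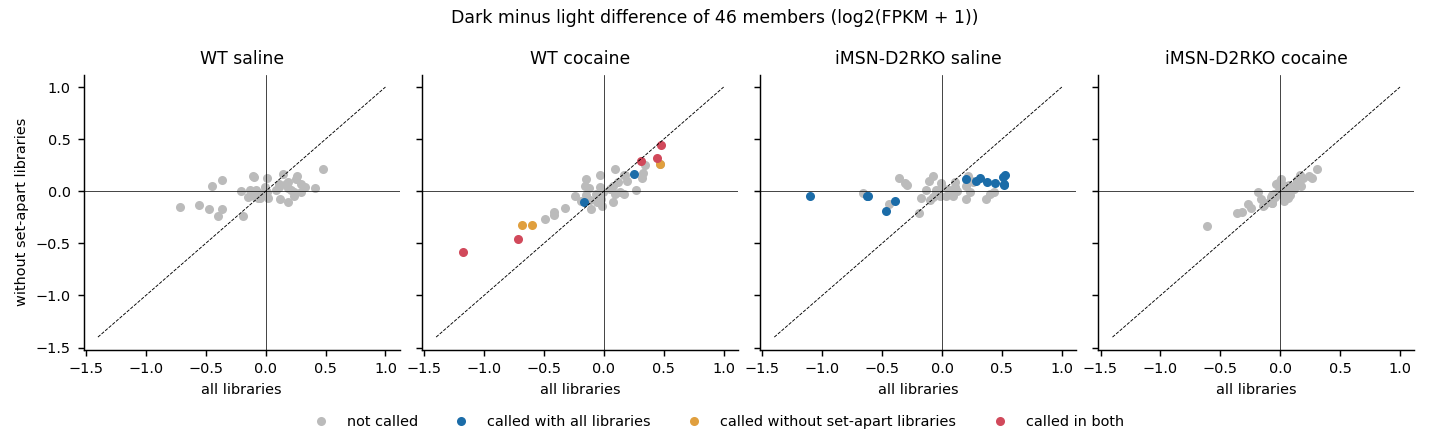
Dark minus light difference (log2(FPKM + 1)) of the 46 members in each series, with all libraries (horizontal) and without the 13 set-apart libraries (vertical); the dashed line marks equality and colours mark limma calls at an adjusted p under 0.05. In saline-treated iMSN-D2RKO mice the points lie flat, from -1.10 to 0.53 along the horizontal axis, with no call on the vertical one, and in cocaine-treated WT mice 5 members are called in both.

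Transcript features varied with these differences as well. Across the 46 members, the dark minus light difference had a Spearman's rho with GC content of -0.62 in saline-treated WT, -0.56 in cocaine-treated WT, -0.67 in saline-treated and -0.56 in cocaine-treated iMSN-D2RKO mice. Without the set-apart libraries these were -0.18, -0.46, -0.33 and -0.36. The series are not independent of each other, since ZT3 libraries are shared, and genes are not replicates.

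Other genes of the same route were read the same way. A list of 60 further ER to Golgi genes (receptors, RAB1 and its effectors, golgins, COG and NRZ tethers, SNAREs, ARF regulators and cargo receptors) had 58 tested members. JTK_CYCLE called 5 of them (8.62%, against 9.58% of all genes) in saline-treated WT mice, among them Mia3, the TANGO1 collagen exporter at ER exit sites, and Rab1b. It called 8 (13.8%, against 7.57%) in cocaine-treated WT mice, among them Rab1 and Zw10, a subunit of the NRZ tether that captures COPI vesicles. In iMSN-D2RKO mice it called Cog2 and Gosr1 under saline (3.45%, against 2.57%) and 0 under cocaine (against 1.09%). Between dark and light, 12 passed in cocaine-treated WT mice (20.7%, against 13.7% of all genes, 7 of them higher) and 16 in saline-treated iMSN-D2RKO mice (27.6%, against 27.3%, 7 of them higher), and 0 in the other series. The smallest p values in cocaine-treated WT mice were those of Zw10 (0.25 ± 0.058, limma adjusted p = 0.00579), the golgin gene Golga2 (0.40 ± 0.098, adjusted p = 0.00921) and Mia3 (0.50 ± 0.12, adjusted p = 0.00921). In saline-treated iMSN-D2RKO mice they were those of Uso1, which encodes the tether p115 (0.33 ± 0.07, limma adjusted p = 0.00414), Rab1b (-0.56 ± 0.13, adjusted p = 0.00656) and the COG gene Cog2 (-0.27 ± 0.063, adjusted p = 0.0069). No gene of this list passed for treatment or genotype. In the set-apart libraries 22 of the 60 were lower and 16 higher in 10 of 10 groups. Of the 9584 genes above 5 FPKM, 25.7% were lower and 26.4% higher in 10 of 10. The 60 were not filtered on level.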

How the data were processed

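Poly(A) RNA of the punches was sequenced by the authors as single-end reads (TruSeq Stranded mRNA), aligned to mm10 with TopHat and Bowtie, and assembled and normalised with Cuffmerge, Cuffquant and Cuffnorm; the submitters' processing notes also name CASAVA 1.8.2. The deposited values are FPKM per gene, scaled between libraries by the authors, in 72 columns, of which 6 repeat the ZT3 libraries. FPKM hold no read depth, so counting error is unknown.

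Genes with at least 1 FPKM in 1 library of a comparison were tested. JTK_CYCLE (version 3.1, rewritten in Python 3.11.15) was run on FPKM with periods of 20 to 24 h over 11 period and phase pairs, Bonferroni correction and Dixon's test (95%) for single replicates, and called at a corrected p under 0.01. Differences used limma 3.58.1 (R 4.3.3) with trend on log2(FPKM + 1), which understates changes of low genes, Benjamini-Hochberg adjustment over all genes and an adjusted p under 0.05. Level comparisons had time as a factor, rhythm differences an F test of group by cosine and sine, and dark and light or single times were contrasts of a 22-group fit. Both tools were tested on simulated data with noise drawn independently for each gene and library. That noise lacks the axis of the set-apart libraries, so these tests say nothing about calls along it. Nothing says whether the 3 libraries of a group come from separate animals, so p-values measure the spread between libraries. Transcript length and GC content are those of the longest protein-coding GENCODE M21 transcript.

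The genes, lists and tests were chosen with earlier results of these data known. Values are given for the 3 members with the smallest rhythm p in each series (mean of at least 5 FPKM), up to 5 called members or the smallest p in each comparison, the highest and lowest member of each complex, pairs of related subunit genes and at most 3 called genes of the further list. Other values were chosen after they were seen. Pooled over all groups, no pairing by replicate number was seen. Deviations of same-numbered libraries of different groups had a median correlation of -0.0027 (-0.895 to 0.88). For libraries of other numbers it was 0.0032 (-0.876 to 0.874). Particular pairs of groups were not examined, so these values do not decide whether some of them were paired. Protein sequences were not used here.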

Additional observations from a re-analysis of the deposited data

Results flagged for a closer look

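At ZT19, 2 members had every cocaine library on 1 side of every saline library in WT mice and on the opposite side in iMSN-D2RKO mice, of 230 pairs of member and time point looked at (0.87%). Over all 14643 genes above the filter 401 of 73215 such pairs did so (0.548%). Sec22a, a relative of the SNARE Sec22b, had 7.0, 6.16 and 4.87 FPKM under saline and 7.17, 7.58 and 7.70 under cocaine in WT mice, and 7.21, 4.92 and 7.73 under saline and 4.37, 4.69 and 4.00 under cocaine in iMSN-D2RKO mice. The difference between the effects (iMSN-D2RKO minus WT) was -0.78 on the log2(FPKM + 1) scale. Trappc13 of TRAPPIII had 21.4, 21.6 and 20.8 FPKM and then 22.1, 23.1 and 23.8 in WT mice, and 23.7, 19.8 and 22.9 and then 19.4, 19.4 and 18.1 in iMSN-D2RKO mice, a difference of -0.32. These differences at ZT19 were not tested. Of these 12 libraries, 4 of WT and 2 of saline-treated iMSN-D2RKO mice are set-apart ones.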

How the results depend on the processing

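No alternative gave a called member for level, rhythm difference or the difference in cocaine effect. Members called rhythmic numbered 5 in saline-treated WT mice when set-apart libraries were left out (10.9%, against 6.3% of all genes) and 2 after the library score was removed (4.35% against 7.04%), 0 and 2 in cocaine-treated WT mice (0.0% against 2.36%, and 4.35% against 6.97%), and 1 in saline-treated iMSN-D2RKO mice with the 24 h period only. Leaving out 1 replicate number gave 0 to 4, 0 to 4, 0 to 4 and, in cocaine-treated iMSN-D2RKO mice, 0 to 1. Where 4 members were called, 638 of 14222 and 796 of 14136 genes were called in saline-treated WT mice. These counts were 854 of 14276 in cocaine-treated WT and 941 of 14176 in saline-treated iMSN-D2RKO mice. Where 1 member was called, 66 of 14176 genes were. With the 24 h period only, 561 of 14267 genes were called in saline-treated iMSN-D2RKO mice. Of the members called between dark and light, 3 remained without the filter on low values in cocaine-treated WT mice (3 called), and with the library score as a covariate 0 were called there and 0 in saline-treated iMSN-D2RKO mice, where 0 were also called without the set-apart libraries. The Tmed9 difference in the latter series changed sign with the covariate (0.030). Leaving out 1 replicate number gave 0 to 2 in saline-treated WT, 0 to 16 in cocaine-treated WT and 0 to 19 in saline-treated iMSN-D2RKO mice. The highest of these counts were 4.35% of members against 8.25% of all genes, 34.8% against 22.2% and 41.3% against 33.3%. The 3 called without the filter were 6.0% of members, against 7.4% of all genes. With the covariate 4.58% of all genes were called in cocaine-treated WT and 1.88% in saline-treated iMSN-D2RKO mice. The replicate block gave 8 calls in cocaine-treated WT mice (17.4%, against 13.2% of all genes). It gave 14 in saline-treated iMSN-D2RKO mice (30.4%, against 27.0%) and changed no other count of called members. Chosen after seeing the data, the fit without the library of the highest FPKM sum gave 1 call between dark and light in saline-treated WT mice (2.17%, against 7.05% of all genes). It gave 9 in cocaine-treated WT (19.6%, against 18.1%) and 9 in saline-treated iMSN-D2RKO mice (19.6%, against 20.2%). That without the library of the lowest sum gave 1, 5 and 18 (2.17%, 10.9% and 39.1%, against 5.02%, 11.3% and 32.4% of all genes). Without that library 6 members were called rhythmic in cocaine-treated WT mice, with 1306 of 14211 genes. At single time points, members were called without the set-apart libraries only in WT mice at ZT19. There 1 library is left in each group and its spread is taken from the other groups, so these calls are not counted here. When a replicate number was left out, single time points gave 0 to 5 member calls. The 5 came without replicate 3, in iMSN-D2RKO mice at ZT7, where the library of the highest FPKM sum is then 1 of 2. The share of all genes called in that fit is not given here, so this count is not read as a result about the members. The cause of these changes was not tested.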
